A study of Mus musculus with 12 samples.

Results

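Integrins are the cell-surface receptors by which macrophages hold on to matrix and to other cells, and 10 of their genes were described here across 4 treatments of RAW 264.7 cells, an established mouse macrophage line. The genes were Itgal, Itgam, Itgax, Itgb2, Itga4, Itgb7, Itga5, Itgav, Itgb1 and Itgb3, taken by symbol from a table of 55137 rows of read counts. Itgal (ENSMUSG00000030830), Itgam (ENSMUSG00000030786) and Itgax (ENSMUSG00000030789) lie on mouse chromosome 7, and Itgb2 (ENSMUSG00000000290) on chromosome 10. Itga4 (ENSMUSG00000027009) and Itgav (ENSMUSG00000027087) lie on chromosome 2, Itgb7 (ENSMUSG00000001281) and Itga5 (ENSMUSG00000000555) on chromosome 15, Itgb1 (ENSMUSG00000025809) on chromosome 8 and Itgb3 (ENSMUSG00000020689) on chromosome 11. All 10 had at least 1 row, and all 10 passed the filter on low counts that left 14505 genes for testing. The 4 groups were control cells, cells given 20 uM PSTO, cells given 500 ng/mL LPS, and cells given both (PSTO+LPS). LPS is lipopolysaccharide, the bacterial cell-wall component that macrophages sense through TLR4. PSTO is not spelled out in the labels, and the study's title speaks of garlic extract. PSTO or its vehicle was added 30 min before LPS, and cells were harvested after 6 h. Each group had 3 libraries of total RNA. The labels call them triplicates without saying that they came from separate cultures, so the p-values below measure only the spread between these libraries, which may be technical.

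An integrin is a pair of 1 alpha and 1 beta chain, and both must be made for either to reach the surface in quantity. On leukocytes the beta2 chain (Itgb2, CD18) pairs with Itgal (CD11a) to form LFA-1, with Itgam (CD11b) to form Mac-1, the complement receptor CR3, and with Itgax (CD11c) to form CR4. Itga4 pairs with Itgb1 to form VLA-4, a receptor for VCAM-1 and fibronectin, or with Itgb7 to form a receptor for MAdCAM-1. Itga5 pairs with Itgb1 as the classical fibronectin receptor, and Itgav pairs with Itgb1, Itgb3, Itgb5, Itgb6 or Itgb8 in receptors for vitronectin and for latent TGF-beta.

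The libraries held 15817880 to 28625784 reads, and Spearman's correlation between libraries of 1 group was 0.988 to 0.9933. All 9 macrophage markers passed the filter. Their summed level was 10780 to 11520 CPM (reads scaled to the size of each library) in control, 12320 to 13150 under PSTO, 9066 to 9169 under LPS and 13380 to 13430 with both. The higher sum under PSTO alone was carried by Cd14, which averaged 1156, 3472, 2152 and 5208 CPM in this order of groups. Of the other markers, only Spi1 averaged higher under PSTO than in control, at 453.8 against 442.2 CPM. Csf1r went from 2605 to 2285 CPM and Lyz2 from 6273 to 5905. The summed levels of dendritic, neutrophil, platelet, T cell, B cell, fibroblast, epithelial and endothelial markers reached 54.08 CPM at most, and Cd209a, Cd3g, Cd8a, Col1a2, Pdgfra, Epcam and Krt18 had 0 reads in the 12 libraries. The highest of these sums was that of the dendritic cell list in PSTO+LPS, at 43.48 to 54.08 CPM, against 0.3306 to 1.077 CPM in control and 25.25 to 27.14 CPM under LPS, carried by Xcr1. Its part in the results was not tested. In bulk RNA, fewer cells of a type and less RNA per cell cannot be told apart. Itgam also names another row, which had 0 to 6 reads a library. In an annotation of another build that row is a same-strand locus covering 68.67% of the exon bases of Itgam, so the counting could have split or dropped reads they share, and the level of Itgam is uncertain. Itga4 shares 8.04% of its exon bases with the opposite-strand gene Cerkl, and Itgav 5.9% with Gm13684. Both neighbours had at most 66 reads in a library, and without a stated strand setting reads from the shared bases cannot be told apart.

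The DNA in front of 3 integrin genes is shown because these genes had among the widest ranges of expression of the 10: Itgax and Itga5, which were highest in LPS, and Itga4, which was lowest in PSTO+LPS. Each window runs 5' to 3' on the gene's own strand from 250 bases before the RefSeq gene start to 50 bases after it, on GRCm38.p6. Itgax lies at chr7:128129300-128129599 on the plus strand, Itga5 at chr15:103366742-103367041 on the minus strand and Itga4 at chr2:79255176-79255475 on the plus strand. Capitals mark matches on either strand to kappaB (GGGNNNNNCC), AP-1 (TGANTCA) or the PU.1 core (GAGGAA).
Itgax: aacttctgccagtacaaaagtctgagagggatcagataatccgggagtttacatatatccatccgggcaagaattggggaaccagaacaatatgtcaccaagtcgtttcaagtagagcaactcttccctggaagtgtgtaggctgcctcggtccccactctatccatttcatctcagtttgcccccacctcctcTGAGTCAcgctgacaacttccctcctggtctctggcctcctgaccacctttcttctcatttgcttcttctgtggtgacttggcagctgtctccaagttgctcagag
Itga5: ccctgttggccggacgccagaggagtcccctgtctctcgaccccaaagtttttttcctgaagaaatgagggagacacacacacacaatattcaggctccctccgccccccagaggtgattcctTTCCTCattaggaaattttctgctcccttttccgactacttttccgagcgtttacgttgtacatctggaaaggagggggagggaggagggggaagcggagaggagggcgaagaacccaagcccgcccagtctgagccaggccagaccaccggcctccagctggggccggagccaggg
Itga4: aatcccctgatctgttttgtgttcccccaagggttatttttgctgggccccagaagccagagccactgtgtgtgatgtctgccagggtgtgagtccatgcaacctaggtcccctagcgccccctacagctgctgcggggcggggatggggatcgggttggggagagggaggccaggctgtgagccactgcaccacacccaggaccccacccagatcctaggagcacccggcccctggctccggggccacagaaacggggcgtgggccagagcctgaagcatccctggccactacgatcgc
The Itgax window held 1 AP-1 match, at -56 to -50 from the gene start. The Itga5 window held 1 PU.1 core match, at -127 to -122, and 2 GC boxes (GGGCGG). The Itga4 window held none of the 3 capitalised motifs and 1 GC box, at -114 to -109. Of 32851 windows of this length, 7.81% held the AP-1 letters, 28.3% the PU.1 core, 50.8% kappaB and 35.7% a GC box. RefSeq windows were matched for 7 of the 10 genes. Of these 7, 1 held AP-1, 5 the PU.1 core, 3 kappaB, 5 a GC box and 0 the TATA letters TATAAA. A match describes the letters and not a bound site.

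Corrected for exon length, the highest level in control cells was that of Itgb2, at 156 CPM per kb, then Itga4 at 64.8, Itga5 at 61.1, Itgb1 at 56.1 and Itgav at 54.3 CPM per kb. Itgb7 stood at 28.8, Itgam at 11.1, Itgal at 3.75 and Itgax at 1.19 CPM per kb, and Itgb3 was close to absent at 0.0472. Under LPS the order began with Itga5 at 488 CPM per kb, ahead of Itgb2 at 322 and Itgav at 142, and Itga4 ranked 5 at 52.1. With PSTO alone Itgb2 led at 153, followed by Itga5 at 76.9, Itgb1 at 70.7, Itgav at 36.2, Itgb7 at 26.3 and Itga4 at 24.1 CPM per kb. In PSTO+LPS, Itga4 ranked 8 of 10 at 9.91 CPM per kb, below Itgax at 11.9, while Itga5 led at 400.05 and Itgb2 followed at 199.9. These levels rest on exon lengths from another genome build than the one used for the counts, and that of Itgam is uncertain for the overlap given above. Each length covers all annotated exons of the gene, 13.978 kb for Itga4 and 4.933 kb for Itga5. Which transcripts the cells expressed was not determined. The order of genes, and the ratios and shares per kb below, depend on these lengths.

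**Figure D1:**
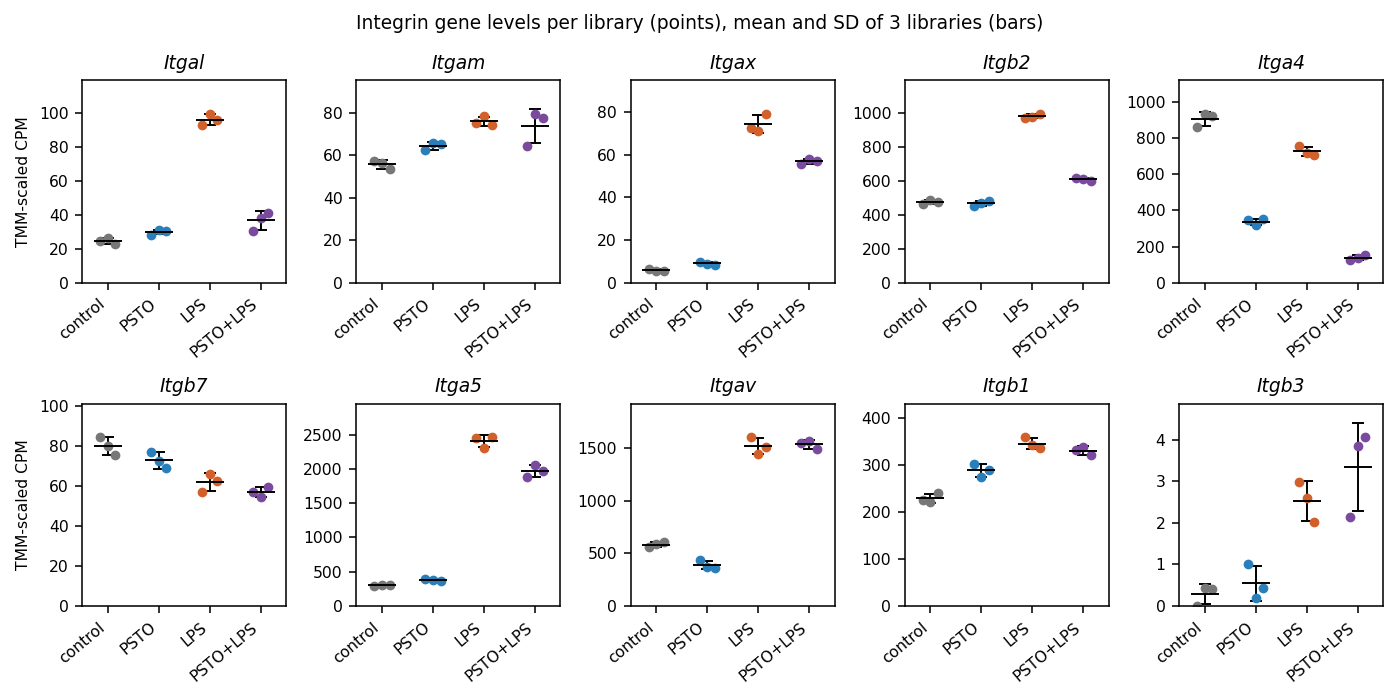
Level of each of the 10 integrin genes in every library, in TMM-scaled CPM on linear axes from 0, by group (points: libraries; bars: mean and SD of 3 libraries). Itga5 and Itgax stand higher in every library with LPS than in any without, and Itga4 is lowest in PSTO+LPS, at 125 to 156 CPM.

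LPS alone changed all 10 genes, 8 upward and 2 downward, by edgeR's quasi-likelihood test at a Benjamini-Hochberg adjusted p below 0.05. In that comparison 62.9% of all tested genes were called, 32.8% higher and 30.1% lower. The median log2 change of the 10 was 1.21, against 0.01 over all tested genes, and no library of control overlapped one of LPS for any of the 10, as for 67.4% of all tested genes. In the presence of PSTO, LPS again changed all 10, 8 up and 2 down, where 59.7% of all genes were called (29.8% higher, 29.9% lower), with a median log2 change of 0.34. Of these calls, those of Itgal, Itgam and Itgb1 were lost under upper-quartile scaling. PSTO alone changed 7 of the 10, 5 up and 2 down, where 30.6% of all genes were called (14.8% higher, 15.8% lower). Added to LPS, PSTO changed 5 of the 10, all 5 downward, where 38.3% of all genes were called (16.6% higher, 21.7% lower). The PSTO effect differed with and without LPS for 7 of the 10, where 17.1% of all genes were called. The comparisons share control or LPS libraries, so their counts are not independent of each other. The TMM scaling factors were 1.17 to 1.21 in libraries without LPS and 0.832 to 0.851 in those with it. Each change between libraries with and without LPS therefore depends on that scaling, the small ones most. Changes below are log2 fold changes unless a fold is named.

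**Figure D2:**
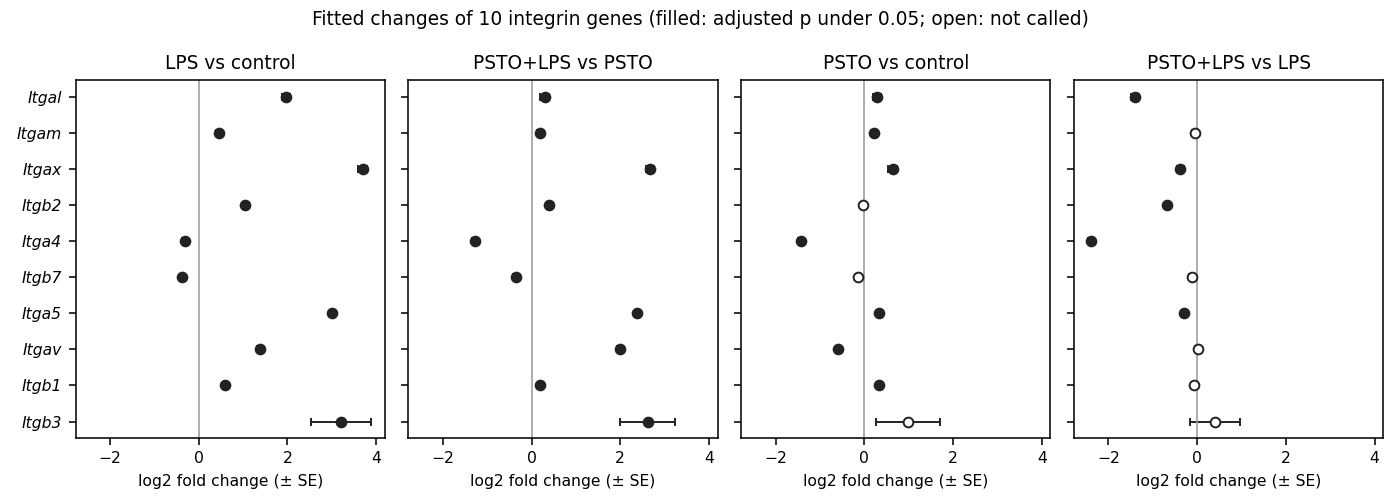
Fitted log2 fold change (± SE) of the 10 integrin genes in 4 comparisons, each between groups of 3 libraries (filled: adjusted p below 0.05; open: not called). LPS raised 8 and lowered 2 in both settings, and PSTO on top of LPS called 5, all below 0. Of all tested genes, 62.9% were called for LPS against control, 59.7% for PSTO+LPS against PSTO and 38.3% for PSTO+LPS against LPS.

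Among the beta2 integrins, LPS raised the common beta chain and all 3 alpha chains, and PSTO on top of LPS lowered Itgal most. Itgb2 stood at 465, 489 and 478 CPM in the control libraries, 453, 471 and 480 under PSTO, 973, 980 and 996 under LPS, and 617, 611 and 603 with both agents. The LPS libraries were above all others, PSTO+LPS lay between, and control and PSTO overlapped. LPS raised Itgb2 by 1.04 on the log2 scale (SE 0.04, adjusted p = 2.07e-14), and with PSTO added to LPS it fell by 0.69 (adjusted p = 1.42e-10). PSTO alone gave -0.03, with a 95% interval of -0.12 to 0.06 (adjusted p = 0.651). With PSTO present, the LPS rise was 0.38 (adjusted p = 8.97e-08).

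Itgal, the alpha chain of LFA-1 through which leukocytes bind ICAM-1, read 24.6, 26.5 and 22.8 CPM in the control libraries, 28.3, 30.9 and 30.2 under PSTO, 92.8, 99.2 and 95.4 under LPS, and 30.3, 38.2 and 41.2 with both agents. The LPS libraries stood apart, and the PSTO+LPS libraries overlapped those of PSTO without LPS. LPS raised it by 1.96 (SE 0.09, adjusted p = 4.45e-13), and PSTO+LPS against LPS was -1.39 (SE 0.09, adjusted p = 7.75e-10). With PSTO present the LPS rise was 0.29 (adjusted p = 0.0112), and this call was lost without PSTO+LPS replicate 3 (adjusted p = 0.105) and under upper-quartile scaling (0.106). The small rise with PSTO alone, 0.28 (adjusted p = 0.0292), was lost without control replicate 1 (0.0922), control replicate 3 (0.165), PSTO replicate 2 (0.125) or PSTO replicate 3 (0.103).

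Itgax, the alpha chain of CR4 and a common label of dendritic cells and of activated macrophages, read 6.40, 5.43 and 5.36 CPM in the control libraries, 9.88, 8.95 and 8.12 under PSTO, 72.4, 71.4 and 79.2 under LPS, and 55.8, 58.2 and 57.0 with both agents. No neighbouring groups overlapped, in the order LPS, PSTO+LPS, PSTO, control. The LPS rise of 3.69 (SE 0.09, adjusted p = 4.46e-17) was 12.9-fold, the widest range of group means among the 10. PSTO moved Itgax upward without LPS, by 0.64 (adjusted p = 7.37e-05), and downward with it, by -0.38 (adjusted p = 0.000848). Itgam, the alpha chain of Mac-1, had the narrowest range of group means of the 10. It read 57.5, 56.4 and 53.5 CPM in the control libraries, 62.5, 65.9 and 65.4 under PSTO, 75.5, 78.6 and 74.2 under LPS, and 64.6, 79.6 and 77.6 with both agents. The control libraries were lowest, and the PSTO+LPS libraries overlapped both LPS and PSTO. LPS raised it by 0.45 (adjusted p = 1.42e-05). PSTO+LPS against LPS was -0.04, with a 95% interval of -0.21 to 0.12 (adjusted p = 0.667). The rise with PSTO alone was 0.21 (adjusted p = 0.0253) and was lost without any of the 3 control libraries (0.0578, 0.0752 and 0.144), without PSTO replicate 2 (0.117) or without PSTO replicate 3 (0.109). The LPS rise in the presence of PSTO, 0.19 (adjusted p = 0.0237), was lost without PSTO+LPS replicate 2 (0.142) or 3 (0.117), under upper-quartile scaling (0.344), with no filter on low counts (0.0835) and when only the groups compared entered the fit (0.0533).

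Set against each other per kb, the 3 beta2 partners changed their mix. Itgam made up 69.2% of their sum in control, 66.8% under PSTO, 33.5% under LPS and 45.7% with both. Itgax went from 7.42% ± 0.599 (SD, n = 3) in control to 34.2% ± 1.72 in LPS and 37% ± 2.5 in PSTO+LPS. Itgal held 23.4% ± 1.1 in control, 32.3% ± 0.749 in LPS and 17.2% ± 1.41 in PSTO+LPS. The Itgal share did not overlap between LPS and PSTO+LPS (two-sided exact permutation p = 0.1, the smallest that 3 against 3 allows), and the Itgax share did (exact permutation p = 0.3). The sum of the 3 alpha chains over Itgb2, per kb, was 0.103 in control cells, 0.126 under PSTO, 0.140 under LPS and 0.161 with both. All of these shares and sums take Itgam as counted. Its level is uncertain because of the locus that overlaps it, and so are their sizes.

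**Figure D3:**
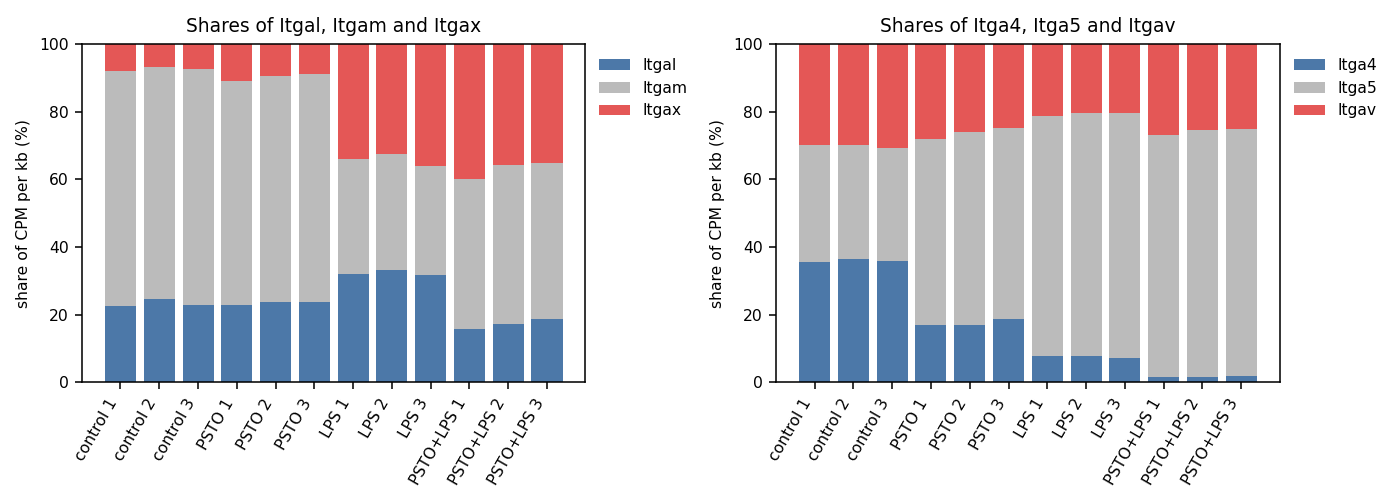
Share of each alpha chain in the summed level per kb of Itgal, Itgam and Itgax, and of Itga4, Itga5 and Itgav, in percent (1 stacked bar for each of the 12 libraries). The mean Itgam share is 69.2% in control and 33.5% in LPS, and the mean Itga4 share is 36% in control and 1.79% in PSTO+LPS. The level of Itgam is uncertain, and with it the shares of Itgal, Itgam and Itgax.

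Itga4 carried the greatest effect of PSTO among the 10 genes. It read 862, 935 and 922 CPM in the control libraries, 345, 317 and 351 under PSTO, 756, 721 and 707 under LPS, and 125, 135 and 156 with both agents. From high to low the groups stood in the order control, LPS, PSTO, PSTO+LPS, and no neighbours overlapped. With PSTO alone it fell by 1.42 on the log2 scale (SE 0.06, adjusted p = 5.98e-12). On top of LPS the change was -2.39 (SE 0.07, adjusted p = 2.42e-14), a level 5.25-fold lower, which ranked 2 by p among the 14505 genes of that comparison. With LPS alone Itga4 fell by 0.32 (adjusted p = 0.000219), and with LPS in the presence of PSTO it fell by 1.28 (adjusted p = 2.42e-12). The fall with PSTO was greater with LPS than without (difference -0.97, adjusted p = 4.56e-07).

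Itgb7, a beta partner of Itga4 best known on gut-homing lymphocytes, read 84.3, 79.8 and 75.5 CPM in the control libraries, 77.1, 72.3 and 68.9 under PSTO, 57.2, 66.0 and 62.6 under LPS, and 57.0, 54.5 and 59.5 with both agents. The libraries with LPS lay below those without, and libraries with and without PSTO overlapped on either side of that split. With LPS it fell by 0.37 (adjusted p = 9.11e-05), and with PSTO present it fell by 0.35 (adjusted p = 0.000207). PSTO gave -0.13 without LPS, with a 95% interval of -0.29 to 0.02 (adjusted p = 0.14), and -0.12 with it, with an interval of -0.28 to 0.04 (adjusted p = 0.201).

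Itga5, the fibronectin receptor's alpha chain, rose with LPS to the highest level per kb among the 10 genes. It read 298, 304 and 301 CPM in the control libraries, 392, 376 and 371 under PSTO, 2452, 2313 and 2461 under LPS, and 1885, 2063 and 1973 with both agents. No groups overlapped. The LPS rise was 8.0-fold (SE 0.04 on the log2 scale, adjusted p = 2.72e-20) and ranked 19 by p among all tested genes. With PSTO present it was 2.38 on the log2 scale (adjusted p = 4.33e-19). PSTO moved Itga5 upward by 0.33 without LPS (adjusted p = 4.79e-06) and downward by -0.29 with it (adjusted p = 1.78e-05).

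Itgb1, the beta chain shared by Itga4, Itga5 and Itgav, moved over a narrower span. It read 225, 221 and 240 CPM in the control libraries, 303, 274 and 289 under PSTO, 359, 342 and 337 under LPS, and 333, 339 and 321 with both agents. LPS and PSTO+LPS overlapped, and the other neighbours did not. LPS raised it by 0.59 (adjusted p = 4.7e-09) and PSTO alone by 0.33 (adjusted p = 4.14e-05). In the presence of PSTO the LPS rise was 0.20 (adjusted p = 0.00248), lost under upper-quartile scaling (0.17). PSTO+LPS against LPS was -0.06, with a 95% interval of -0.18 to 0.05 (adjusted p = 0.349). Itga5 over Itgb1, per kb, was 1.09 both in control cells and under PSTO, 5.77 under LPS and 4.94 with both.

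Itgav, the vitronectin receptor's alpha chain, read 557, 588 and 604 CPM in the control libraries, 435, 374 and 359 under PSTO, 1603, 1446 and 1513 under LPS, and 1548, 1573 and 1489 with both agents. PSTO lay below control, and the 2 LPS-treated groups overlapped. With PSTO alone Itgav fell by 0.58 (adjusted p = 3.84e-07). LPS raised it by 1.38 without PSTO (adjusted p = 1.68e-13) and by 1.98 with it (adjusted p = 1e-15). PSTO+LPS against LPS was 0.02, with a 95% interval of -0.12 to 0.15 (adjusted p = 0.874), so a change as large as the one without LPS lies outside that interval. Itgb3, the beta chain of platelets and osteoclasts that pairs with Itgav, was rare. It had 0, 11 and 12 reads in the control libraries, 26, 5 and 12 under PSTO, 71, 53 and 38 under LPS, and 37, 51 and 68 with both agents. The LPS-treated libraries were all higher. The rise was 3.21 with LPS alone (SE 0.67, adjusted p = 0.000366) and 2.62 with PSTO present (adjusted p = 0.00136). Without control replicate 1, which had 0 reads, the first was 2.56, and without PSTO replicate 1 the second was 3.44. PSTO made no called difference to Itgb3 with LPS (0.39, 95% interval -0.91 to 1.69) or without (0.98, interval -0.67 to 2.63).

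The ratio of Itga5 to Itga4 message per kb gathered these changes. Neither gene had overlapping groups, so groups that stand apart in their ratio add no independent support. It was 0.942 ± 0.0335 (SD, n = 3) in control, 3.19 ± 0.183 under PSTO, 9.38 ± 0.418 under LPS and 40.6 ± 4.07 with both, and no groups overlapped (exact permutation p = 0.1 for each pair compared, the smallest possible). Of the summed Itga4, Itga5 and Itgav message, Itga4 held 36% ± 0.531 in control, 17.6% ± 1.02 under PSTO, 7.64% ± 0.281 under LPS and 1.79% ± 0.2 with both. Itga5 held 33.9%, 56.1%, 71.6% and 72.3%, and Itgav 30.1%, 26.3%, 20.7% and 25.9%, in the same order of groups. The sum of the 3 over Itgb1 was 3.21 in control cells, 1.94 under PSTO, 8.05 under LPS and 6.83 with both.

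**Figure D4:**
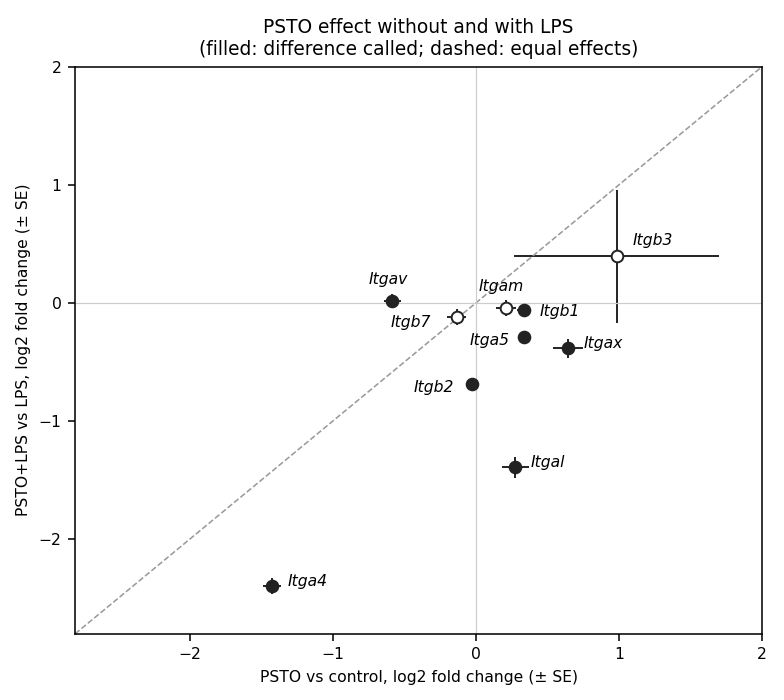
PSTO effect on each integrin gene without LPS (horizontal axis) and with LPS (vertical axis), as log2 fold change ± SE. The dashed line marks equal effects, and filled points are the 7 genes whose 2 effects differed, where 17.1% of all tested genes were called. Itga4 lies lowest and Itgav lies above the line.

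The PSTO effect differed by LPS in 7 of the 10 genes, lower with LPS in 6 and higher in 1, where 10.1% of all genes were called lower and 6.96% higher. Itgal differed most, by -1.67 (adjusted p = 6.29e-08), followed by Itgax at -1.03 (adjusted p = 1.52e-05). The differences were -0.97 for Itga4, -0.66 for Itgb2 (adjusted p = 1.74e-07), -0.62 for Itga5 (adjusted p = 5.33e-07) and -0.40 for Itgb1 (adjusted p = 0.000553). Itgav went the other way, at 0.60 (adjusted p = 4.6e-05). Itgam at -0.26 (adjusted p = 0.0855), Itgb7 at 0.02 (0.943) and Itgb3 at -0.59 (0.741) were not called.

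The genes whose log2 CPM followed an integrin most closely over the 12 libraries were found for the 3 members with the widest range of group means. For Itgax they were Ptpn23 (Pearson's r 0.9975), Actr3 (0.9974) and Itga5 itself (0.9972). For Itga5 they included Rhbdf2 (0.9983) and Tm9sf4 (0.9983). For Itgb3 they were Birc2 (0.9579), Trak2 (0.9406) and Cdc42 (0.9374). Itgax, Itga5 and Itgb3 each stood higher in every library with LPS than in any without, so a high correlation over the 12 libraries can rest mostly on that split.

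Of 16 further integrin genes, 7 passed the filter, and Itgb5, another beta partner of Itgav, had the most reads of them. Itgb5 averaged 192.6 CPM in control cells, 108 under PSTO, 39.64 under LPS and 31.71 with both. It fell by 2.28 with LPS on the log2 scale (adjusted p = 3.01e-17), fell by 0.83 with PSTO alone (adjusted p = 6.36e-10) and fell by 0.32 with PSTO on top of LPS (adjusted p = 0.000343). Itgb8, the beta chain of a TGF-beta-activating integrin, had 0 reads in the control and PSTO libraries, 80 to 98 in LPS and 12 to 18 in PSTO+LPS. It was at least 121.4-fold higher in LPS than in control and at least 26.02-fold higher in PSTO+LPS than in PSTO, taking 3 reads over a group as the floor. With PSTO its LPS level fell by 2.07 (adjusted p = 0.00155). Itga6, a laminin receptor chain, averaged 11.46 CPM in control and fell by 1.54 with LPS (adjusted p = 8.68e-07) and fell by 1.08 with PSTO (adjusted p = 0.000138). Its difference between the PSTO effects, 0.83 (adjusted p = 0.0471), was lost without any 1 of 9 of the 12 libraries (adjusted p 0.0552 to 0.113), with the replicate block (0.0671), by limma-voom (0.0823), with no filter (0.0788) and with the 50-read filter (0.0513). Itga2b, the platelet alpha chain, stood at 1.62 CPM or less in every group, and its rise in PSTO+LPS against PSTO (adjusted p = 0.0384) was lost without any 1 of 4 libraries (0.0615 to 0.12) and under upper-quartile scaling (0.0506).

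Among 19 tested genes that switch integrins on or off from inside the cell, LPS raised 6 and lowered 8, where 32.8% of all genes were higher and 30.1% lower. PSTO on top of LPS raised 3 and lowered 13 of the 19, where 16.6% of all genes were higher and 21.7% lower. Their median log2 change was -0.02 with LPS and -0.32 with PSTO on top of it, against 0.01 and -0.03 over all tested genes. Rap1b, a small GTPase that activates integrins, rose with LPS by 2.44 (adjusted p = 1.8e-19), from 370.8 to 2015 CPM, and stood at 1358 in PSTO+LPS. Rasa3, which turns Rap1 off, fell by 3.05 with LPS (adjusted p = 4.48e-16) and fell by 0.86 with PSTO (adjusted p = 1.02e-07). Cytip, a partner of cytohesin-1 that loosens LFA-1 adhesion, fell by 4.53 with LPS (adjusted p = 1.79e-15) and rose with PSTO by 1.88 without LPS (adjusted p = 9.85e-11) and by 2.06 with it (adjusted p = 2.3e-08). Its group means were 84.04 CPM in control cells, 308.6 under PSTO, 3.683 under LPS and 15.39 with both. Cyth1, cytohesin-1 itself, rose with PSTO alone by 1.13 (adjusted p = 1.76e-10), and Cyth3 with PSTO on top of LPS by 0.89 (adjusted p = 5.63e-07). Rassf5, the Rap1 effector RAPL, fell by 2.40 in PSTO+LPS against PSTO (adjusted p = 4.41e-13). Tln2, talin-2, fell by 1.40 with PSTO alone (adjusted p = 6.75e-07). Tln1, talin-1, was far more abundant, at 848.7 against 12.37 CPM in control. It rose by 0.17 with PSTO alone (adjusted p = 0.0105) and fell by 0.29 with PSTO on top of LPS (adjusted p = 0.000112).

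Of the 5 lists of integrin-related genes, the cytoplasmic adhesion complex had the most calls in the difference between PSTO effects, with 1 of 28 tested genes higher and 16 lower, where 6.96% of all genes were higher and 10.1% lower, at a median of -0.42 against -0.03 over all tested genes. LPS raised 17 and lowered 4 of the 28, against 32.8% and 30.1% of all genes (median 0.43 against 0.01), and the 4 became 7 under upper-quartile scaling. PSTO on top of LPS raised 2 and lowered 17, against 16.6% and 21.7% of all genes (median -0.25 against -0.03). The 2 became 1 without LPS replicate 1, without LPS replicate 2 or with no filter on low counts. Src and Fgr, kinases that signal below integrins, were among the genes of this list with the largest changes in both comparisons. Src averaged 7.528 CPM in control cells, 16.22 under PSTO, 273.1 under LPS and 94.25 with both. It rose by 5.17 with LPS (adjusted p = 1.6e-18) and fell by 1.54 with PSTO on top of it (adjusted p = 8.09e-11). Fgr rose by 2.96 with LPS (adjusted p = 9.77e-17) and fell by 1.48 with PSTO on top of it (adjusted p = 2.84e-11). Zyx, the focal adhesion protein zyxin, rose with PSTO alone by 1.75 (adjusted p = 5.98e-12). Vcl, vinculin, which links talin to actin, averaged 66.78 CPM in control cells, 79.69 under PSTO, 132.3 under LPS and 63.67 with both, and its PSTO effects differed by -1.31 (adjusted p = 8.64e-09). Syk, the kinase that beta2 integrins signal through, rose with PSTO alone by 0.90 (adjusted p = 6.15e-10). With PSTO on top of LPS its change of 0.10 was not called (adjusted p = 0.189), and its PSTO effects differed by -0.80 (adjusted p = 1.13e-06).

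Of 17 tested integrin ligand genes, LPS raised 10 and lowered 4, where 32.8% of all genes were higher and 30.1% lower. PSTO on top of LPS raised 2 and lowered 8, where 16.6% were higher and 21.7% lower. The median changes were 0.74 and -0.19, against 0.01 and -0.03 over all tested genes. Tnc, the matrix protein tenascin-C, averaged 9.15 CPM in control cells, 4.489 under PSTO, 557.4 under LPS and 180.5 with both, and fell by 1.63 with PSTO on top of LPS (adjusted p = 1.87e-08). Icam1, the ligand of LFA-1 and Mac-1, averaged 46.57, 24.11, 470.8 and 363.9 CPM in the same order. It rose with LPS by 3.34 (adjusted p = 1.7e-16) and fell by 0.95 with PSTO alone (adjusted p = 3.18e-07). C3, whose fragment iC3b binds Mac-1 and CR4, rose with LPS by 2.61 (adjusted p = 1.16e-14). Thbs1, thrombospondin-1, rose with LPS by 4.60 (adjusted p = 5.31e-10), and its rise with PSTO alone (adjusted p = 0.0274) was lost without any 1 of 4 libraries (0.068 to 0.119), by limma-voom (0.141) and when only the groups compared entered the fit (0.085). Jam2, an adhesion molecule that binds VLA-4, fell by 1.09 with PSTO on top of LPS (adjusted p = 6.55e-06). Vcam1, the main cellular ligand of VLA-4, had 5 reads in the LPS libraries together and 0 in control, and Fn1, fibronectin, had 6 reads in control and 0 in PSTO.

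All 17 genes for surface partners of integrins were tested, of which LPS raised 9 and lowered 5, against 32.8% and 30.1% of all genes, at a median of 0.29 against 0.01. PSTO on top of LPS raised 5 and lowered 5, against 16.6% and 21.7% of all genes, at a median of -0.01 against -0.03. Plaur, the urokinase receptor that associates with Mac-1 and other integrins, averaged 110.6 CPM in control cells, 270.3 under PSTO, 1547 under LPS and 1853 with both, and rose with LPS by 3.81 (adjusted p = 3.07e-21). Cd47, an associate of Itgav and Itgb3, rose with LPS by 2.39 (adjusted p = 3.86e-15), and Cd44, the hyaluronan receptor, by 2.03 (adjusted p = 3.45e-17). With PSTO on top of LPS, Cd47 fell by 0.58 (adjusted p = 7.25e-06) and Cd44 fell by 0.49 (adjusted p = 2.22e-07). Sirpa, the receptor for Cd47, averaged 400.6 CPM in control cells, 215.9 under PSTO, 59.06 under LPS and 41.63 with both.

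**Figure D5:**
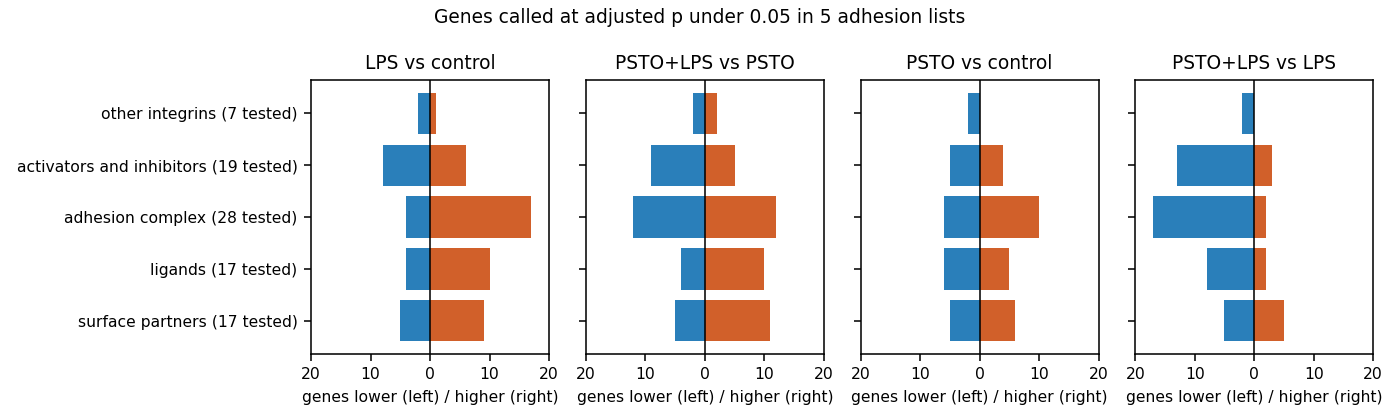
Genes called higher and lower in 5 lists of integrin-related genes in each comparison, as numbers of tested genes (the lists hold 7, 19, 28, 17 and 17 tested genes). The adhesion complex list has 17 of 28 genes higher and 4 lower with LPS, where 32.8% of all tested genes were higher and 30.1% lower. With PSTO on top of LPS it has 2 higher and 17 lower, where 16.6% of all were higher and 21.7% lower.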

How the data were processed

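Total RNA of 12 libraries of RAW 264.7 cells was sequenced, 3 a group. The deposited values are whole-number read counts per gene, not normalized, in 1 table. HISAT, DESeq2 and the build mm39 are named in the submitters' processing notes. For the read counter, annotation, strand setting and tool releases, nothing is given in the sources used here. Of 55137 rows, 1336 carry no gene name, and totals were 15817880 to 28625784 reads. Columns were matched to samples by title.

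Genes were filtered with filterByExpr, leaving 14505. Counts were scaled by TMM, with factors of 1.17 to 1.21 in libraries without LPS and 0.832 to 0.851 in those with it. They were fitted with edgeR 4.0.16 in R 4.3.3 by quasi-likelihood, with 1 mean for each of the 4 groups over 12 libraries. P-values were adjusted by Benjamini-Hochberg over all 14505 genes and called below 0.05. Standard errors are the log2 change over the root of F, and 95% intervals use 8 residual degrees of freedom. Exon lengths, over all annotated exons of a gene, came from GENCODE vM21 (GRCm38, another build than the files', matched by gene ID) and promoter windows from RefSeq. The exact permutation tests of ratios are two-sided, and the ratios were not among the planned results. Scripts were tested on simulated data for LPS against control. Of 100 planted log2 changes of size 1, 64 were called, and of 100 of size 2, 80 were called, with 1 false call. Few of the 14505 genes were changed there, as many upward as downward. In the data 62.9% of all tested genes were called for LPS against control. The simulation is thus unlike the data, and its shares do not measure the error of the reported tests. Changes of these sizes were missed in the simulation, and how many are missed in the data was not tested. Alternatives were DESeq2 1.42.0, limma-voom 3.58.1, other scalings and filters, fits of only the groups compared, a replicate block and each library left out.

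The members and the gene lists were chosen with earlier results of these data known. Beyond the 10 genes, those named were, per comparison and list, drawn from the up to 4 called genes with the largest log2 change and at least 1 CPM in the higher group, and, for the 3 members with the widest range, the 3 genes most correlated with each. Some genes that meet the rule are not reported here. Vcam1, Fn1 and Tln1 were named after their values were seen.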

Additional observations from a re-analysis of the deposited data

Results flagged for a closer look

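For 7 of the 10 integrin genes the PSTO effect with LPS differed from that without LPS by a test of the difference itself (edgeR's quasi-likelihood test of the interaction, adjusted over all genes, of which 17.1% were called). The difference on the log2 scale was -1.67 for Itgal, -1.03 for Itgax, -0.97 for Itga4, -0.66 for Itgb2, -0.62 for Itga5, -0.40 for Itgb1 and 0.60 for Itgav. For Itgax, Itga5, Itgal and Itgb1 the PSTO effect was above 0 without LPS and below 0 with it. Of these, the effect was called in both settings for Itgax, Itga5 and Itgal, the last with the loss of calls given above. Itga4 fell in both settings, Itgb2 was called lower with LPS and not without it, and Itgav was called lower without LPS and not with it.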

How the results depend on the processing

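The counts of integrin genes called stayed within 1.5 times the reported ones under each alternative run. Within that bound, Itgal, Itgam and Itgb1 all lost the call for PSTO+LPS against PSTO under upper-quartile scaling (adjusted p = 0.106, 0.344 and 0.17 by edgeR's quasi-likelihood test). With each library left out in turn, the members called were 10 to 10 for LPS against control, 8 to 10 for PSTO+LPS against PSTO, 5 to 7 for PSTO against control, 5 to 5 for PSTO+LPS against LPS and 7 to 8 for the difference between PSTO effects, where Itgam was gained without PSTO+LPS replicate 2 (-0.31, adjusted p = 0.0426). The genes called were 8601 to 9353, 8146 to 8738, 3725 to 4802, 4790 to 5549 and 2079 to 2408. Of 990 values of single members, 963 kept direction and call, 17 lost the call (all of Itgal, Itgam or Itgb1, given above) and 9 changed sign, none of them called. For PSTO+LPS against LPS, Itgav was -0.0046 with no filter, -0.025 without LPS replicate 2 and -0.0055 without PSTO+LPS replicate 2, and Itgam was 0.042 without PSTO+LPS replicate 1. With each library left out they ranged from -0.025 to 0.052 and from -0.102 to 0.042. For the difference between PSTO effects, Itgb7 was -0.0046 with no filter, -0.044 without LPS replicate 1 and -0.021 without PSTO+LPS replicate 3, and Itgb3 was 0.085 without control replicate 1 and 0.263 without PSTO replicate 1. With each library left out they ranged from -0.044 to 0.119 and from -0.9885 to 0.263. The cause was not tested. Under upper-quartile scaling the median of all genes was -0.144 for LPS against control and -0.138 for PSTO+LPS against PSTO, the share of calls that were higher moved from 52.1% to 41.8% in the first, and the adhesion complex genes lower with LPS went from 4 to 7. Replicate numbers of the labels did not pair the libraries (correlations of deviations -0.0314 to 0.0513 over 18 pairs, 4 of 12 libraries closest to their own number). With the number as a replicate block, the genes called were 8987, 8521, 4294, 5366 and 2345, and the members called 10, 10, 7, 5 and 7. The rare Itgb3 (0 to 71 reads a library) has the widest errors: its rise with LPS was 2.56 to 4.27 on the log2 scale over the alternatives, the latter by limma-voom. The lists were put through the same alternatives by a choice made after seeing the data: 955 list counts stayed within 1.5 times and 35 did not, and 1798 values of listed genes kept direction and call while 44 lost the call.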

Other observations

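Spi1, which encodes the macrophage factor PU.1 and was among the macrophage markers, was looked at beside Itgb2 after its values were seen. With LPS it rose by 1.15 on the log2 scale (adjusted p = 5.43e-13), against 1.04 for Itgb2. With PSTO alone it changed by 0.04 (adjusted p = 0.663), against -0.03, and with PSTO on top of LPS by -0.76 (adjusted p = 2.1e-09), against -0.69. Its PSTO effects differed by -0.80 (adjusted p = 5.69e-07), against -0.66 for Itgb2. Spi1 was picked for its likeness to Itgb2, and the other macrophage markers were mixed. Csf1r, Lyz2 and Cd68 went the other way. With LPS they changed by -1.61 (adjusted p = 2.04e-17), -0.55 (1.41e-10) and -0.16 (0.00547), and with PSTO on top of LPS by 0.26 (2.97e-05), 0.44 (2.44e-08) and 0.21 (0.0016). Fcgr1 went the same way as Spi1, by 3.17 with LPS (3.64e-12) and -0.69 with PSTO on top of it (0.00135). Cd14 and Mrc1 rose in both, by 0.90 (2.85e-13) and 3.06 (4.03e-09) with LPS and by 1.28 (9.19e-14) and 0.86 (0.00381) with PSTO on top of it. Adgre1 and Mertk were not called in either. Whether the levels of these genes are linked was not tested.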
